A study of Cucumis melo with 24 samples.

Results

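WRKY genes encode one of the large families of plant transcription factors, and their transcripts were followed here through the ripening of melon (Cucumis melo) fruit flesh in the wild type and in a mutant of the ripening regulator CmNAC-NOR. The genes were chosen by the word WRKY in the description that the deposited expression table gives each gene. Of 29980 genes listed, 109 were so described, and 50 of them reached 1 TPM in at least 3 of the 24 libraries. TPM is the usual measure of the level of a gene per transcript length relative to all transcripts of its library. Of the other 59 genes, 38 were listed at 0 in every library, 17 never reached 1 TPM, and 4 reached it in 1 library, the highest of these at 20.46 TPM. The share of WRKY genes that passed was 45.9%, against 58.9% of all genes listed. The rule used no value of a comparison between genotypes or ages, but the genes were chosen with earlier results of these data known. None of the 50 genes reached 1 TPM in exactly 3 libraries, the fewest being 4 for MELO3C020166.2, and 25 reached it in all 24. The libraries at 1 TPM or more were all of the mutant for MELO3C020166.2 and MELO3C023832.2, and all of the wild type for MELO3C029397.2. These genes passed the minimum through 1 genotype alone. MELO3C026740.2, MELO3C026932.2, MELO3C007458.2, MELO3C018826.2, MELO3C030287.2 and MELO3C020162.2 reached 1 TPM in fewer than 3 wild-type libraries, so they passed only with those of the mutant. The differences of all these genes between genotypes are not independent of the choice.

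A WRKY protein carries a conserved DNA-binding domain that recognizes W-box elements in promoters, among them promoters of other WRKY genes. The family is known from Arabidopsis for its part in defence against pathogens, in the crosstalk of salicylic acid and jasmonic acid, and in leaf senescence, and members have been linked to fruit ripening in several species. Several Arabidopsis WRKY proteins are phosphorylated by MAP kinases and bind small partner proteins with a VQ motif. The descriptions of 7 of the 50 genes carry a family number, and the others read only WRKY transcription factor, protein or family, so the genes are named by identifier and no role is given to an unnumbered one.

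The libraries came from fruit flesh of the wild type (WT) and of the cmnac-nor mutant, 3 libraries for each genotype and age. The ages were 15, 25, 35 and 45 days after pollination (DAP), written below as days, which makes 8 groups. CmNAC-NOR encodes a NAC-domain transcription factor, and its tomato relative regulates ripening. The labels give neither the allele nor the cultivar, and they do not state whether libraries of 1 group stem from different fruits or plants. The p-values therefore rest on the spread among these samples alone, which may be technical. Each gene was tested with limma on log2(TPM + 1) in 1 model over all 24 libraries and 17658 genes, with a separate spread for each group, and a gene is said to be called where its Benjamini-Hochberg adjusted p is under 0.05. Changes are log2 differences, mutant minus WT or later minus earlier age. A step difference is the mutant's change between neighbouring ages minus that of WT.

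The table keeps no read depth. ACC oxidase 1 (MELO3C014437.2), which makes ethylene in ripening flesh, stood at 9217 to 19361 TPM in WT libraries from day 25 on and at 4.90 to 102 TPM in mutant libraries. CmNAC-NOR itself (MELO3C016540.2) read 575 to 1027 TPM in WT and 24.6 to 319.8 in the mutant on day 15, and 1392 to 1463 against 482 to 642 TPM on day 25. The genotypes overlapped on day 35, at 798 to 1290 TPM in WT and 1028 to 1216 in the mutant, and on day 45 the mutant lay above WT, at 1808 to 1919.7 against 430.3 to 511 TPM. Markers of other tissues differed between genotypes at some ages. On day 15 the phloem sums overlapped, at 10121 to 19837 TPM in WT and 11539 to 26185 in the mutant. At that age 0 phloem genes were called. The 28 genes described as phloem proteins, of which 1 was at 0 in every library, summed to 1844 to 2934 TPM in WT and 5935 to 9135 in the mutant on day 25, to 181 to 371 and 3845 to 7147 on day 35, and to 98.3 to 151 and 7177 to 10600.2 on day 45. Of the 25 that passed the filter, 19 were called higher in the mutant and 1 lower on day 25, 19 and 2 on day 35, and 13 and 0 on day 45. Of all genes tested, 52.8% were called higher and 20.3% lower on day 25. The shares were 40.7% and 22.9% on day 35 and 41.8% and 24.2% on day 45. They are the background for the counts of the lists below as well. The 37 genes of the xylem and lignin list, of which 3 were at 0 in every library, summed to 1665 to 1885 TPM in WT and 2524 to 2678 in the mutant on day 25. The corresponding sums were 788.5 to 858 and 1832 to 2446 TPM on day 35 and 1107.5 to 1256 and 2256.5 to 2439.5 on day 45. On day 15 the order was the opposite, at 1799 to 2006 TPM in WT and 1508 to 1554 in the mutant. Of the 26 that passed the filter, 18 were called higher and 3 lower on day 25. The counts were 12 and 2 on day 35 and 8 and 4 on day 45. The broad seed list of 125 genes, 34 of them at 0 in every library, summed to 1218 to 1680 TPM in WT and 4805 to 5968.5 in the mutant on day 25, to 1178 to 1741 in WT and 3448 to 4555 in the mutant on day 35, and to 1622.5 to 1843 in WT and 3943.5 to 5683 in the mutant on day 45. Of the 60 seed genes that passed the filter, 34 were called higher in the mutant and 10 lower on day 25 (median change 0.82), 19 and 16 on day 35 (median 0.01), and 21 and 17 on day 45 (median 0.11). Its 14 storage proteins and oleosins, 3 of them at 0 throughout, summed to 39.8 to 48.4 TPM in WT and 86.2 to 122.9 in the mutant on day 25. Their order was the opposite on day 35, with 85.2 to 161.5 TPM in WT and 59.5 to 75.1 in the mutant, and on day 45, with 101.3 to 152.9 and 75.5 to 90.6. The 15 rind and cuticle genes summed to 88.1 to 126.5 TPM in WT and 78.4 to 93.4 in the mutant on day 25, and to 36.6 to 41.0 and 62.7 to 74.8 TPM on day 45. On day 35 these sums overlapped, at 36.6 to 69.3 TPM in WT and 63.9 to 68.4 in the mutant. Of the 10 of them that passed the filter, 6 were called higher and 1 lower on day 25. The counts were 3 and 2 on day 35 and 4 and 1 on day 45. In bulk tissue fewer cells of a type and less RNA per cell cannot be told apart, and the part of these tissues in the results below was not tested.

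The family as a whole was a small and shifting share of the transcripts. The 50 genes together summed to 1240 ± 353 TPM (SD, n = 3) in WT and 1265 ± 277 in the mutant on day 15, and to 1052 ± 51.5 and 1903 ± 334 on day 25. On day 35 the order turned, with 1615 ± 102 TPM in WT and 1083 ± 136 in the mutant, and on day 45 the sums were 1548 ± 164 and 1701 ± 411. The libraries of both genotypes overlapped in this sum on days 15 and 45 and not on days 25 and 35. The highest group mean of a gene lay most often in WT on day 15 or in the mutant on day 25, with 11 genes each, then in WT and in the mutant on day 45, with 7 each. Only MELO3C007470.2 had its highest mean in WT on day 25.

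From day 25 on most WRKY genes differed between genotypes, as most genes of the flesh did. On day 25, 39 of 50 were called, 30 higher and 9 lower in the mutant, against 73.1% of all genes, 52.8% higher and 20.3% lower. On day 35, 31 were called, 21 higher and 10 lower (63.6% of all genes, 40.7% and 22.9%). On day 45, 40 were called, 30 higher and 10 lower (66.0%, 41.8% and 24.2%). On day 15, 6 were called, 3 in each direction (8.12%, 4.02% and 4.11%). Libraries of the genotypes did not overlap in 42 members on day 25, 32 on day 35 and 40 on day 45, against 75.6%, 68.1% and 70.1% of all genes. The shares of members called were 78.0% on day 25 and 62.0% on day 35, near those of all genes, so these numbers are not particular to the family. On day 45 the share was 80.0% against 66.0% of all genes, and on day 15 it was 12.0% against 8.12%. The difference between these shares was not tested. The direction leaned further: the median member was 0.95 log2 units higher in the mutant on day 25, 0.67 on day 35 and 1.06 on day 45, against 0.44, 0.27 and 0.22 for the median of all genes. On day 15 these medians were -0.17 and 0.03.

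The lean of all genes depends on the scaling between libraries, which takes the median of all genes on day 25 from 0.44 to 0.09 under median-of-ratios scaling and to -0.01 under quantile normalization. The split of higher against lower members moved with it, to 28 and 13 or 20 and 14 on day 25, 17 and 11 or 16 and 14 on day 35, and 27 and 11 or 23 and 15 on day 45 under the respective scalings. All genes split 6738 and 5767 or 5857 and 6164 on day 25 under these scalings. On day 35 they split 5954 and 5331 or 5280 and 5925, and on day 45 6144 and 5620 or 5181 and 6402. The median member was 0.79 or 0.45 on day 25, 0.53 or 0.25 on day 35 and 0.90 or 0.64 on day 45. The medians of all genes were 0.09 or -0.01, 0.07 or -0.03, and 0.04 or -0.08. Without rescaling, 32 of 50 members were higher in the mutant than the median of all genes on day 25, 31 on day 35 and 33 on day 45, and 17 on day 15.

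**Figure D1:**
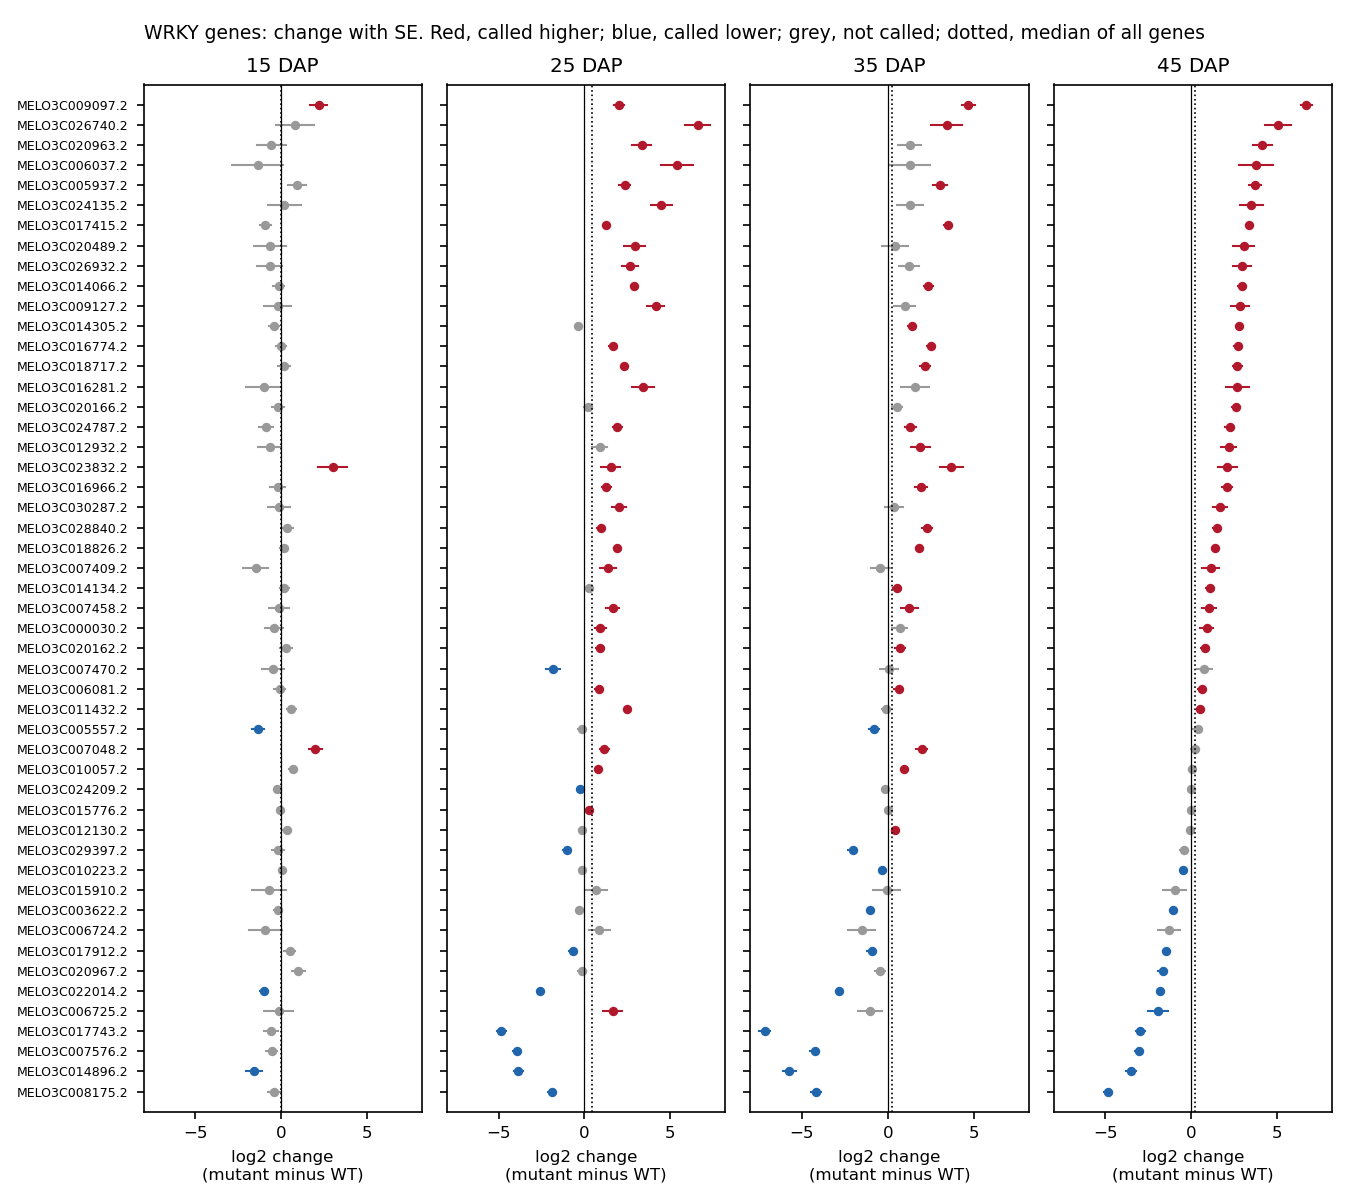
Log2 change (mutant minus WT, x axis) of the 50 WRKY genes (rows) at each age, points with SE, ordered by the change on day 45. Red points passed the test as higher in the mutant and blue as lower, grey did not pass, and the dotted line is the median of all genes tested; most points on days 25 and 45 are red, with 30 members each.

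The plot of all members by age shows 3 sets that are described in turn. From day 25 to 45, 15 genes were called higher at all 3 ages (30.0% of members, 26.9% of all genes), and 6 were called lower at all 3 (12.0% and 10.4%). A further 11 were called higher on days 25 and 45 and not called on day 35, which is 22.0% of members and 4.91% of all genes. The sets were formed from these calls, so the counts are descriptions.

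The 6 genes called lower in the mutant at all 3 ages rose in WT from day 15 to 25. These were MELO3C017743.2, MELO3C014896.2, MELO3C007576.2, MELO3C008175.2, MELO3C022014.2 and MELO3C017912.2, and MELO3C017743.2, MELO3C014896.2 and MELO3C022014.2 are among the 6 WRKY genes with the highest mean level over all libraries. The 6 were grouped by calls that share the libraries of day 25 with the step from day 15 to 25. In WT each of the 6 was called up in that step (19.4% of all genes). For each the step was also called different between genotypes, lower in the mutant (12.1% of all genes). The call on that difference was lost for MELO3C008175.2 with a pseudocount of 0.1 or without mutant replicate 2 of day 15 (adjusted p up to 0.107). It was lost for MELO3C017912.2 without WT replicate 3 or mutant replicate 2 of day 15 (adjusted p up to 0.0572). Each of their 18 calls between genotypes from day 25 on held under every alternative processing tried.

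MELO3C017743.2 had the largest change of these genes on days 25 and 35. In WT its libraries, in replicate order, read 0, 1.43 and 0.41 TPM on day 15, 52.5, 56.1 and 65.8 on day 25, 246, 189 and 228 on day 35 and 271, 249.7 and 166 on day 45. In the mutant it was listed at 0 in each library on day 15 and read 0.26, 1.4 and 1.86 TPM on day 25, 0.41, 0.31 and 0.96 on day 35 and 23.2, 27.1 and 33.7 on day 45. From day 25 on every WT library lay above every mutant library, and of the mutant steps the last was called. The change between genotypes was -4.84 (adjusted p = 4.86e-12) on day 25, -7.17 (SE 0.32, limma adjusted p = 1.5e-12) on day 35 and -2.97 (adjusted p = 1.07e-08) on day 45. The rise in WT came from day 15 to 35 (5.29 and 1.91 in the 2 steps) and that in the mutant from day 35 to 45 (4.22, SE 0.29, limma adjusted p = 3.78e-09), after a step from day 15 to 25 that was not called (1.04, adjusted p = 0.0762). Step differences were called in all 3 intervals, at -4.25, -2.32 and 4.2.

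MELO3C014896.2 was likewise high in WT and low in the mutant from day 25 on. WT libraries read 4.1, 4.91 and 3.3 TPM on day 15, 82.8, 80.1 and 80.7 on day 25, 262, 289 and 248 on day 35 and 236, 317 and 288 on day 45. Mutant libraries read 0.51, 0.75 and 0.87 TPM on day 15, 3.43, 6.83 and 4.49 on day 25, 9.11, 1.2 and 4.77 on day 35 and 20.9, 24.6 and 26.5 on day 45. The genotypes did not overlap at any age, day 15 included. The change was -3.84 (SE 0.28, limma adjusted p = 5.48e-10) on day 25, -5.73 (adjusted p = 1.16e-10) on day 35 and -3.49 (adjusted p = 5.39e-09) on day 45. Both genotypes rose from day 15 to 25, WT by 4.02 and the mutant by 1.76 log2 units, and the step difference was -2.27 (adjusted p = 0.00163). The mutant's rise in that step lost its call without mutant replicate 2 of day 15 (adjusted p = 0.218). The mutant rose again from day 35 to 45 (2.3, adjusted p = 2.84e-05), where WT did not pass the test (0.06, adjusted p = 0.966).

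MELO3C007576.2 made most of its rise in WT before day 25. Its WT libraries read 18.3, 10.5 and 16.8 TPM on day 15, 109.9, 80.2 and 111 on day 25, 148, 127 and 122 on day 35 and 111, 141 and 94.9 on day 45. The mutant libraries read 11.5, 14.4 and 5.69 TPM on day 15, 6.37, 5.11 and 5.13 on day 25, 6.28, 8.2 and 3.96 on day 35 and 14.3, 10.3 and 14.7 on day 45. The groups overlapped on day 15 only, and all 12 mutant libraries lay between 3.96 and 14.7 TPM. The step difference from day 15 to 25 was -3.4 (SE 0.40, limma adjusted p = 2.38e-06), and the change between genotypes was -4.26 (adjusted p = 1.69e-10) on day 35.

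MELO3C008175.2 was a late gene in WT and rose at each step. It went from 0.42, 0.6 and 0.22 TPM on day 15 through 6.3, 5.48 and 6.25 on day 25 and 34.6, 64.5 and 20.6 on day 35 to 158, 212 and 151 on day 45. Mutant libraries read 0.02, 0.09 and 0.11 TPM on day 15, 0.74, 1.01 and 0.89 on day 25, 1.6, 0.55 and 1.09 on day 35 and 4.24, 6.98 and 4.33 on day 45. Every mutant library lay below every WT library at each age, although the change on day 15, where all libraries were under 1 TPM, did not pass the test. The WT steps were 2.32, 2.4 and 2.23 log2 units. The change between genotypes widened from -1.9 on day 25 to -4.83 (SE 0.24, limma adjusted p = 4.09e-12) on day 45. The WT step from day 35 to 45 missed the threshold in the fit to those groups alone (adjusted p = 0.0522).

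MELO3C022014.2, second in mean level of all WRKY genes, stayed in a narrow range in the mutant. WT libraries read 67.8, 83.3 and 72.02 TPM on day 15, 219, 196 and 228 on day 25, 295, 194 and 295 on day 35 and 137, 187 and 128 on day 45. The 12 mutant libraries all lay between 31.4 and 47.9 TPM. The genotypes did not overlap at any age, and no step was called in the mutant. In WT the gene rose from day 15 to 25 (1.52, adjusted p = 1.06e-07) and fell from day 35 to 45 (-0.78, adjusted p = 0.00241), the latter call being lost without WT replicate 1 of day 35 and in the fit to those groups alone (adjusted p up to 0.112). The change between genotypes was -2.57 (SE 0.14, limma adjusted p = 7.03e-12) on day 25 and -2.87 (adjusted p = 7.91e-11) on day 35.

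MELO3C017912.2 had the smallest differences of the 6 from day 25 on. In WT it read 17.5, 30.1 and 16.9 TPM on day 15, 40.9, 39.5 and 42.2 on day 25, 78.98, 48.4 and 81.7 on day 35 and 23.4, 30.8 and 18.02 on day 45, and in the mutant 28.4, 27.4 and 33.8 TPM on day 15, 24.7, 20.3 and 31.8 on day 25, 27.4, 40.1 and 38.8 on day 35 and 6.85, 8.89 and 8.55 on day 45. Unlike the other 5 it fell in both genotypes from day 35 to 45, by 1.49 in WT and 1.99 in the mutant on the log2 scale, and the step difference was not called (-0.5, adjusted p = 0.266). The WT fall missed the threshold in the fit to those groups alone (adjusted p = 0.0521). The genotypes overlapped on day 15 only, and the change ran from -0.68 (adjusted p = 0.00447) on day 25 to -1.44 (adjusted p = 5.57e-06) on day 45.

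**Figure D2:**
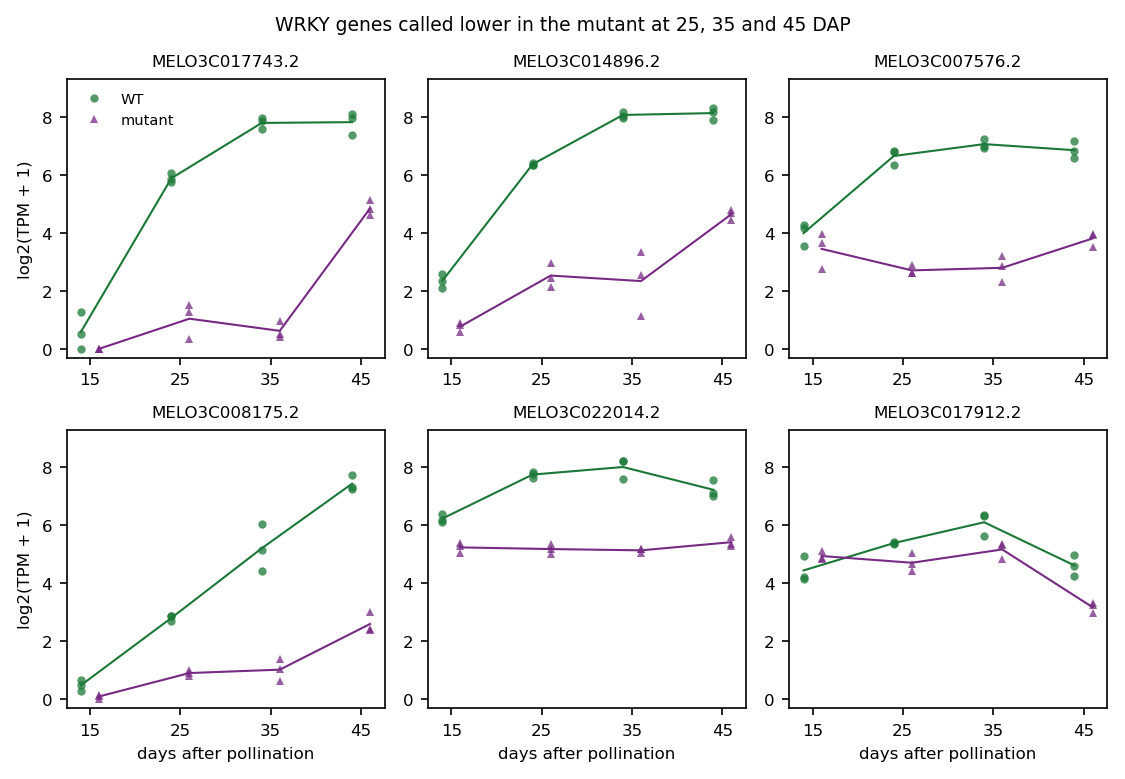
Level of 6 WRKY genes as log2(TPM + 1) (y axis) against days after pollination (x axis), 1 point per library, green circles WT and purple triangles mutant, lines through group means; points are set slightly apart at each age. WT points lie above mutant points from day 25 on in every panel.

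A pair of genes with smaller changes was called lower in the mutant from day 35. MELO3C003622.2 read 96.7, 96.6 and 88.6 TPM in WT and 43.8, 44.7 and 43.9 in the mutant on day 45 (-1.07, SE 0.16, limma adjusted p = 8.24e-06), and its libraries did not overlap from day 25 on. MELO3C010223.2 was among the steadiest WRKY genes, between 82.5 and 139.8 TPM in all 24 libraries. On day 45 it read 136, 139.8 and 131 TPM in WT and 104, 91.3 and 93.5 in the mutant (-0.5, adjusted p = 3.98e-06). MELO3C029397.2 was low throughout, at most 4.33 TPM, and was called lower in the mutant on day 25 (-1.04, adjusted p = 0.000201) and day 35 (-2.04, adjusted p = 1.87e-06), where all 3 mutant libraries were listed at 0.

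The 15 genes called higher in the mutant on days 25, 35 and 45 mostly fell early in WT. In WT 14 of the 15 fell from day 15 to 25 (46.4% of all genes), and 0 rose in any step. In the mutant 1 of the 15 fell in that first step and 0 rose. The step difference from day 15 to 25 was called for 9 of the 15, all higher (35.0% of all genes). Of these calls, 11 of the 14 falls and 7 of the 9 differences held under every alternative processing. The genes were grouped by calls that share the libraries of day 25 with these steps. Their changes ran from 0.83 to 6.60 log2 units on day 25, from 0.64 to 4.70 on day 35 and from 0.60 to 6.70 on day 45, and 11, 12 and 11 of the 15 calls at those ages held under every alternative processing. The phloem list moved the same way at these ages, with the summed levels given above, and its part in these changes was not tested.

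MELO3C009097.2 showed the largest change on day 45. In WT it read 59.7, 18.03 and 41.6 TPM on day 15, 6.84, 11.9 and 12.4 on day 25, 2.75, 5.87 and 1.96 on day 35 and 0.4, 0.36 and 0.45 on day 45. In the mutant it read 145, 223 and 146 TPM on day 15, 31.1, 72.7 and 36.95 on day 25, 96.7, 118 and 113 on day 35 and 162, 112 and 167 on day 45. The mutant lay above WT in every library at every age, and WT fell at each step. The change was 2.2 (adjusted p = 0.00766) on day 15, 2.02 (adjusted p = 1.17e-05) on day 25, 4.7 (adjusted p = 7.22e-09) on day 35 and 6.7 (SE 0.33, limma adjusted p = 3.06e-12) on day 45. From day 15 to 25 both genotypes fell, WT by 1.73 and the mutant by 1.91 log2 units, with no difference called between them (-0.19, adjusted p = 0.818). The mutant's fall lost its call without mutant replicate 2 of day 15 or mutant replicate 1 of day 25 (adjusted p up to 0.304). They parted from day 25 to 35 (2.68, SE 0.51, limma adjusted p = 0.000486) and again from day 35 to 45 (2.0, adjusted p = 0.00718). The call of the WT step from day 25 to 35 was lost without WT replicate 1 of day 35 (adjusted p = 0.0505), and that from day 35 to 45 without the same library or in the fit to those groups alone (adjusted p up to 0.0598).

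MELO3C026740.2 was near 0 in WT after day 15 and not in the mutant. WT libraries read 16.1, 0.59 and 17.8 TPM on day 15 and at most 0.28 TPM at every later age. Mutant libraries read 31.9, 17.96 and 3.5 TPM on day 15, 179.9, 147 and 42.8 on day 25, 13.9, 1.4 and 44.9 on day 35 and 29.6, 22.6 and 48.8 on day 45. All mutant libraries from day 25 on lay above all WT libraries of their age, but on day 35 they ranged widely. The change was 6.6 (SE 0.73, limma adjusted p = 1.47e-07) on day 25, the largest of any WRKY gene at that age, 3.42 (adjusted p = 0.0032) on day 35 and 5.03 (adjusted p = 1.13e-05) on day 45. Its step difference from day 25 to 35 (-3.18, adjusted p = 0.0386) lost its call under 12 of the 20 alternatives, 8 of them leaving out 1 library each (adjusted p up to 0.118).

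MELO3C017415.2 held its level in the mutant and lost it in WT. The 12 mutant libraries lay between 12.7 and 29.3 TPM, and no mutant step was called. WT libraries read 58.7, 30.2 and 42.9 TPM on day 15, 8.73, 7.32 and 9.53 on day 25, 1.26, 0.98 and 1.4 on day 35 and 0.63, 0.85 and 1.02 on day 45. WT lay above the mutant in all libraries on day 15 and below it in all libraries from day 25 on. The change was 1.26 (adjusted p = 1.39e-05) on day 25 and 3.5 (SE 0.25, limma adjusted p = 8.91e-10) on day 35, and both early WT steps fell (-2.19 and -2.1 log2 units).

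MELO3C005937.2 and MELO3C014066.2 also fell in WT from day 15 to 25. MELO3C005937.2 read 20.9, 11.1 and 16.5 TPM in WT on day 15 and 0.14, 0.25 and 0 on day 45, and in the mutant 22.2, 32.3 and 41.3 TPM on day 15 and 18.97, 10.7 and 13.2 on day 45. Its groups did not overlap from day 15 on, and the change was 3.73 (SE 0.34, limma adjusted p = 1.23e-08) on day 45. Its WT step from day 15 to 25 was -2.63 (adjusted p = 4.2e-06). The mutant read 11.3, 9.96 and 17.9 TPM on day 25, below all its libraries of day 15, but that step was not called (-1.23, adjusted p = 0.0979), nor was the step difference (1.4, adjusted p = 0.0587). MELO3C014066.2 read 44.5, 29.1 and 55.8 TPM in WT on day 15 and 3.27, 5.45 and 3.84 on day 25, while the mutant read 54.9, 37.2 and 26.5 TPM on day 15 and 42.3, 35.03 and 35.6 on day 25. Its WT step from day 15 to 25 was -3.06 (SE 0.24, limma adjusted p = 3.2e-09), its mutant step -0.01 (adjusted p = 0.999), and the change between genotypes on day 25 was 2.91 (adjusted p = 4.63e-10).

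MELO3C023832.2 was all but absent from WT, at most 0.39 TPM in any of the 12 libraries. The mutant read 12.4, 4.06 and 9.68 TPM on day 15, 1.33, 2.08 and 2.72 on day 25, 42.4, 6.33 and 6.88 on day 35 and 1.05, 1.78 and 15.3 on day 45. It was above WT in every mutant library of every age, with 1 library each on days 35 and 45 well above the other 2. The change was 3.01 (adjusted p = 0.0346) on day 15 and 3.71 (SE 0.69, limma adjusted p = 0.000118) on day 35. The call on day 15 was lost when WT replicate 1 or 3 was left out, and likewise mutant replicate 2 or 3 (adjusted p up to 0.226).

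The other 9 genes of this set are given in brief. MELO3C018717.2 stood between 39.0 and 87.2 TPM in mutant libraries and at most at 17.8 TPM in WT libraries on days 25 and 35, and its change on day 25 was 2.33 (adjusted p = 2.42e-08). MELO3C016774.2 (2.7 on day 45), MELO3C024787.2 (2.25), MELO3C016966.2 (2.1) and MELO3C028840.2 (1.5) were called higher on day 45 with these log2 changes. Levels under 5 TPM in every library were seen for MELO3C007458.2, MELO3C018826.2, MELO3C006081.2 and MELO3C020162.2. MELO3C018826.2 was listed at 0 in all 3 WT libraries on day 25 against 2.48, 2.99 and 2.68 TPM in the mutant. MELO3C006081.2 is described as WRKY transcription factor 22, which in Arabidopsis acts downstream of a MAP kinase cascade in immunity, and read 0.34, 0.09 and 0.19 TPM in WT and 2.21, 0.35 and 1.27 in the mutant on day 25. MELO3C020162.2 is described as WRKY transcription factor 55, known from Arabidopsis leaf senescence, and read 0, 0.15 and 0.07 TPM in WT and 0.75, 1.99 and 0.51 in the mutant at that age. The calls of MELO3C006081.2 and MELO3C020162.2 at all 3 ages were lost under quantile normalization.

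The 11 genes called higher in the mutant on days 25 and 45 but not on day 35 included MELO3C024135.2 and MELO3C020489.2, which are among the 6 genes of highest mean level. Of the 11 calls on day 25, 9 held under every alternative processing, and of the 11 on day 45, 7 did. In 10 of the 11 the step from day 15 to 25 was called different between genotypes, higher in the mutant (35.0% of all genes), and 7 of these calls held under every alternative processing. The 11 were grouped by calls on days 25, 35 and 45, which share their libraries with that step and with both later steps. A fall to day 35 and a rise after it are thus not independent of the choice. From day 25 to 35, 7 of the 11 fell in the mutant (11.5% of all genes). For 6 of the 11 that step was called different from WT, lower in the mutant (24.0% of all genes). Of these, 3 of the 7 falls and 2 of the 6 differences, those of MELO3C009127.2 and MELO3C011432.2, held under every alternative. From day 35 to 45, 7 rose in the mutant and 1 fell (14.9% and 18.2% of all genes). The step difference was called higher for 1 (13.4%), and 0 of these 9 calls held under every alternative. On day 35 their changes ran from -0.43 to 1.58 log2 units with SE of 0.22 to 1.19, and a missing call there does not show that the genotypes were alike. Without WT replicate 2 of day 35, 4 of the 11 were called higher at that age, without mutant replicate 2 of that age 3, with a pseudocount of 0.1 again 3, and in the fit to those groups alone 2. The phloem sums on day 35 still lay above WT in the mutant, and their part was not tested.

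MELO3C024135.2, described as WRKY protein, had the highest mean of any WRKY gene over the 24 libraries, at 124 TPM. In the mutant it read 303, 87.3 and 44.9 TPM on day 15, 369.5, 446 and 325 on day 25, 97.1, 14.1 and 114 on day 35 and 151, 181 and 285 on day 45. In WT it read 114, 32.8 and 213 TPM on day 15, 13.7, 16.2 and 17.9 on day 25, 18.4, 75.02 and 6.96 on day 35 and 18.1, 13.7 and 18.1 on day 45. On days 25 and 45 all mutant libraries lay above all WT libraries, and on days 15 and 35 the libraries of a group differed several-fold and the groups overlapped. The change was 4.49 (SE 0.62, limma adjusted p = 2.74e-06) on day 25, 1.29 (adjusted p = 0.16) on day 35 and 3.51 (adjusted p = 0.000106) on day 45. The step difference was 4.3 (adjusted p = 0.00499) from day 15 to 25 and -3.2 (adjusted p = 0.0168) from day 25 to 35, the latter lost in the fit to those groups alone (adjusted p = 0.0633).

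MELO3C020489.2, described as WRKY transcription factor 1, is the other abundant gene of this set. Mutant libraries read 46.2, 27.5 and 30.7 TPM on day 15, 257, 305 and 187 on day 25, 60.6, 12.3 and 85.2 on day 35 and 139, 209 and 344 on day 45. WT libraries read 45.02, 37.9 and 91.1 TPM on day 15, 19.9, 41.03 and 36.95 on day 25, 23.9, 137 and 7.69 on day 35 and 30.6, 23.7 and 21.8 on day 45. The highest WT library of day 35, at 137 TPM, lay above all 3 mutant libraries of that age. The change was 2.93 (SE 0.60, limma adjusted p = 0.000238) on day 25 and 3.05 (adjusted p = 0.000319) on day 45. In the mutant the gene rose from day 15 to 25 (2.81, adjusted p = 0.0464), fell to day 35 (-2.57, adjusted p = 0.014) and rose to day 45 (2.39, adjusted p = 0.0126), and no WT step was called. The rise to day 25 lost its call under 7 alternatives, among them leaving out mutant replicate 2 or 3 of day 15 or any mutant library of day 25 (adjusted p up to 0.450). The fall lost its call without mutant replicate 1 of day 25 (adjusted p up to 0.0785), and the rise to day 45 without mutant replicate 2 of day 35 or replicate 3 of day 45 (up to 0.0815).

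MELO3C006037.2 had the largest spread within groups of all 50 genes. WT libraries read 156, 9.21 and 203 TPM on day 15, 0.12, 2.51 and 1.29 on day 25, 2.44, 15.8 and 0.32 on day 35 and 7.26, 4.83 and 6.15 on day 45. Mutant libraries read 190.3, 34.05 and 1.87 TPM on day 15, 113, 135 and 43.7 on day 25, 27.3, 1.76 and 13.4 on day 35 and 73.5, 65.6 and 166 on day 45. On day 15 the values spanned from 1.87 to 203 TPM over 6 libraries with no order between genotypes, whereas on days 25 and 45 the genotypes did not overlap. The change was 5.41 (SE 0.94, limma adjusted p = 4.25e-05) on day 25 and 3.75 (adjusted p = 0.00269) on day 45, and the step difference from day 15 to 25 was 6.77 (adjusted p = 0.00389). Its step difference from day 25 to 35 (-4.11, adjusted p = 0.0394) lost its call under 13 of 20 alternatives, 8 of them leaving out 1 library each (adjusted p up to 0.0938). Its mutant step from day 35 to 45 (3.18, adjusted p = 0.0308) lost its call under 7 of 14, among them leaving out mutant replicate 2 or 3 of day 35 or replicate 3 of day 45 (up to 0.135).

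MELO3C009127.2 read 22.9, 21.3 and 17.1 TPM in the mutant on day 15 and 164, 261 and 104 on day 25, then 33.6, 16.8 and 43.1 on day 35 and 72.2, 60.6 and 164 on day 45. WT read 14.7, 13.4 and 62.2 TPM on day 15, 5.36, 8.22 and 12.97 on day 25, 16.6, 31.5 and 5.01 on day 35 and 14.3, 9.74 and 10.99 on day 45. All mutant libraries lay above all WT libraries on days 25 and 45 and not on day 35. Its step differences were 4.34 (adjusted p = 0.000802) from day 15 to 25 and -3.15 (SE 0.79, limma adjusted p = 0.0044) from day 25 to 35. MELO3C020963.2 went from 21.2, 55.5 and 17.4 TPM in the mutant on day 25 through 2.33, 0.59 and 4.68 on day 35 to 15.2, 8.76 and 52.6 on day 45, with WT at most at 3.14 TPM at all 3 ages. The fall and the rise in the mutant were both called (-3.2, adjusted p = 0.00139, and 2.71, adjusted p = 0.00226), and the step difference from day 35 to 45 was 2.86 (adjusted p = 0.0201). That call was lost without WT replicate 1 of day 35 or mutant replicate 3 of day 45 (adjusted p up to 0.0682).

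MELO3C011432.2 peaked in the mutant on day 25. The mutant read 41.9, 38.04 and 32.8 TPM on day 25 and 10.9, 14.3 and 16.5 on day 35, and WT 5.17, 5.11 and 7.13 TPM on day 25 and 12.7, 18.6 and 13.5 on day 35. The genotypes were apart in all libraries on day 25 and intermixed on day 35. Between those ages WT rose (1.22, adjusted p = 4.08e-05) and the mutant fell (-1.38, adjusted p = 0.000124). The step difference was -2.61 (SE 0.28, limma adjusted p = 2.23e-06). On day 45 the change was 0.54 (adjusted p = 0.0135), lost without WT replicate 2 or mutant replicate 3 of that age, and it reversed to -0.06 under quantile normalization (adjusted p = 0.788).

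Of the other 5 genes of this set, MELO3C016281.2 reached 19.6, 17.7 and 4.25 TPM in the mutant on day 25 against at most 0.34 TPM in WT (3.4, SE 0.65, limma adjusted p = 0.000116). MELO3C026932.2 and MELO3C030287.2 were called on day 25 with changes of 2.64 and 2.03, and MELO3C007409.2 with 1.37. MELO3C000030.2 is described as a probable WRKY transcription factor 48, in Arabidopsis a repressor of basal defence, and its change on day 25 was 0.94 (adjusted p = 0.0175). The calls of MELO3C000030.2 and MELO3C007409.2 at both ages were lost under quantile normalization, and those on day 25 without WT replicate 1 or mutant replicate 1 of that age.

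**Figure D3:**
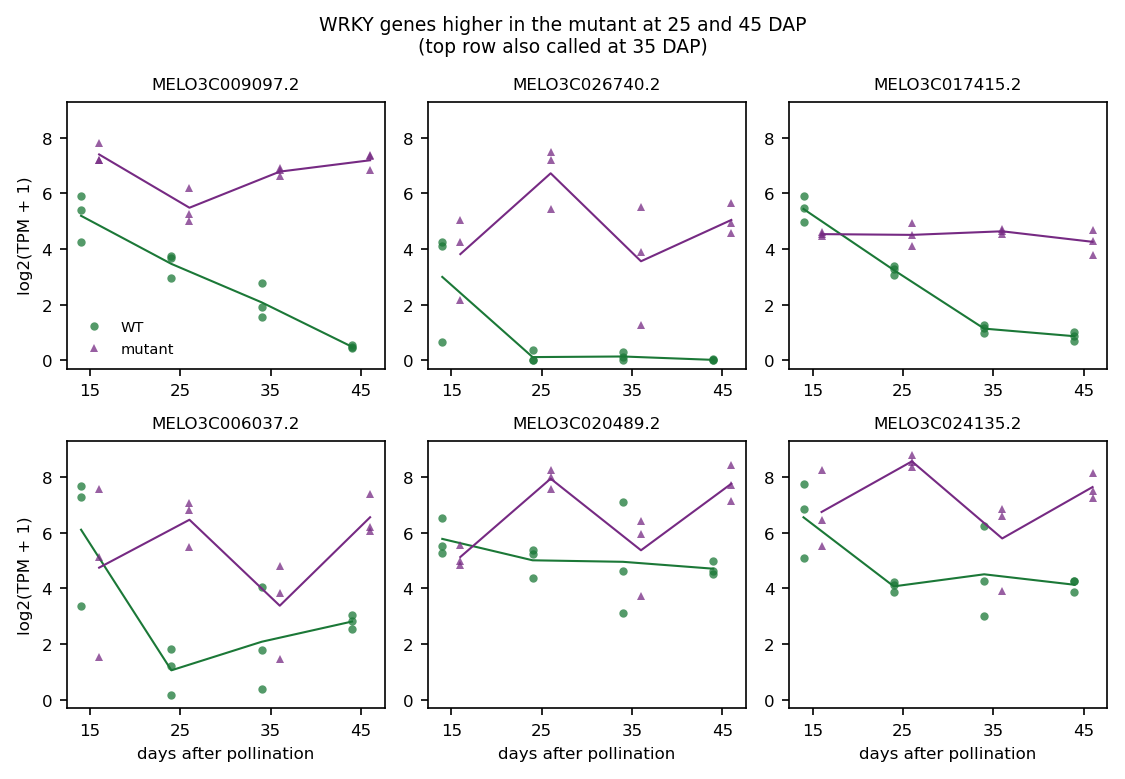
Level of 6 WRKY genes called higher in the mutant on days 25 and 45, as log2(TPM + 1) (y axis) against days after pollination (x axis), 1 point per library, green circles WT and purple triangles mutant, lines through group means. In the top row the gene was also called on day 35; in the bottom row the mutant mean dips on day 35 and libraries of both genotypes overlap there.

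The WRKY genes with the largest spread within groups were often high or low in the same libraries on days 15 and 35. The median pairwise correlation of deviations from the group means over the 24 libraries was 0.51 among the 10 with the largest spread and 0.08 over all members. The 10 were picked by the size of these same deviations, and genes outside the family were not compared, so the values are descriptions. Of the 10, 0 in mutant replicate 2 of day 35 lay above the group mean, and in mutant replicates 1 and 3 of that age 8 and 9 did. WT replicate 2 of day 35 had 8 of the 10 above the mean and replicate 3 had 1. On day 15, 9 of the 10 were above the mean in WT replicate 3 and in mutant replicate 1, and 1 and 2 in WT replicate 2 and mutant replicate 3, while WT replicate 1 and mutant replicate 2 were split, with 5 and 6. On day 45 all 10 were above the mean in mutant replicate 3. The phloem list summed to 3845, 7147 and 5290 TPM in the mutant libraries of day 35 in replicate order and to 371, 181 and 355 in those of WT, so its sum was highest in mutant replicate 2 and lowest in WT replicate 2. Its part in the scatter was not tested.

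**Figure D4:**
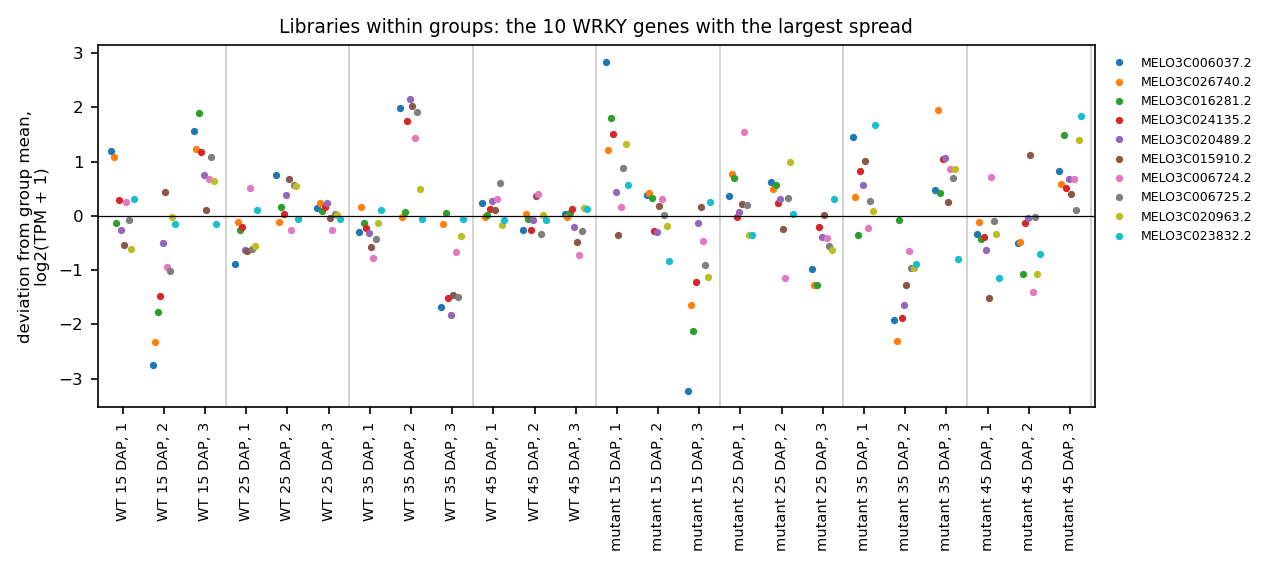
Deviation of each library from its group mean (y axis, log2(TPM + 1)) for the 10 WRKY genes with the largest spread within groups (colours), by library (x axis, group and replicate). All 10 points lie below 0 in mutant replicate 2 of day 35 and above 0 in mutant replicate 3 of day 45, and WT replicate 1 of day 15 is split, with 5 on either side.

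Another 4 genes were called higher in the mutant on day 45 and not on day 25. MELO3C014305.2 read 8.91, 4.06 and 7.25 TPM in the mutant on day 25, 16.02, 22.8 and 15.9 on day 35 and 52.1, 47.3 and 52.5 on day 45, and in WT 8.58, 8.45 and 8.83 TPM on day 25, 5.61, 7.59 and 5.47 on day 35 and 5.32, 5.9 and 8.84 on day 45. The genotypes overlapped on day 25 and did not from day 35 on, with a change of 2.77 (SE 0.19, limma adjusted p = 3.6e-10) on day 45 and a step difference of 1.78 (adjusted p = 0.000163) from day 25 to 35. MELO3C020166.2, described as a probable WRKY transcription factor 70, which in Arabidopsis sits between salicylic acid and jasmonic acid signalling, was under 1 TPM in all libraries of days 25 and 35. On day 45 it read 8.19, 3.24 and 5.11 TPM in the mutant and 0.07, 0 and 0 in WT (2.6, SE 0.22, limma adjusted p = 5.64e-09). Only mutant libraries brought this gene past the filter of 1 TPM. MELO3C014134.2 read 21.5, 28.4 and 27.7 TPM in WT and 31.2, 28.9 and 34.8 in the mutant on day 25, without overlap but not called (0.29, adjusted p = 0.166). It rose in both genotypes from day 35 to 45, to 23.5, 36.7 and 39.5 TPM in WT and 57.5, 59.3 and 97.3 in the mutant, and the steps were not called different (0.53, adjusted p = 0.207). The WT step of MELO3C014134.2 lost its call in the fit to those groups alone and without WT replicate 1 or 3 of day 35 or 2 or 3 of day 45 (adjusted p up to 0.225). MELO3C012932.2, described as a probable WRKY transcription factor 68, read 5.99, 9.94 and 6.28 TPM in WT and 16.02, 10.9 and 16.3 in the mutant on day 25, also without overlap and not called (0.89, adjusted p = 0.0724). It read 3.5, 2.76 and 1.82 TPM in WT and 8.44, 25.8 and 16.5 in the mutant on day 45 (2.18, adjusted p = 0.000338).

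Others overlapped with WT or lay below it on day 45. MELO3C007048.2 read 3.59, 3.48 and 3.38 TPM in WT and 13.1, 24.96 and 14.7 in the mutant on day 15. On day 35 it read 2.03, 2.26 and 2.39 TPM in WT and 7.78, 20.3 and 9.96 in the mutant, and on day 45 it read 3.02, 1.78 and 2.22 TPM in WT and 3.4, 1.77 and 3.69 in the mutant. The mutant lay above WT in all libraries up to day 35, and the groups overlapped on day 45. The mutant fell from day 35 to 45 (-1.72, SE 0.28, limma adjusted p = 0.000125), and the step difference was -1.76 (adjusted p = 0.00299). MELO3C010057.2, described as SUSIBA2-like, after a barley factor of sugar signalling, was called higher in the mutant on day 25 (0.8, adjusted p = 9.57e-05) and day 35 (0.97, adjusted p = 0.000191), and both calls were lost under quantile normalization. On day 45 all 6 of its libraries lay between 8.05 and 8.77 TPM. MELO3C020967.2 read 36.1, 44.4 and 31.6 TPM in WT and 14.1, 8.73 and 10.8 in the mutant on day 45 (-1.66, SE 0.25, limma adjusted p = 1.24e-05), after overlapping on days 25 and 35. On day 15 the order was the opposite, at 26.1, 23.7 and 26.9 TPM in WT and 56.6, 59.4 and 43.5 in the mutant, which was not called. MELO3C006725.2 was higher in the mutant on day 25 (1.65, adjusted p = 0.0111) and lower on day 45 (-1.91, adjusted p = 0.00687), where WT read 29.5, 14.9 and 15.5 TPM and the mutant 4.02, 4.26 and 4.72. Its call on day 25 was lost without mutant replicate 1 of that age and under quantile normalization (adjusted p up to 0.188). MELO3C006724.2, whose identifier follows on that of MELO3C006725.2, was not called at any age, and how reads shared by such neighbours were counted is not given in the sources used here.

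MELO3C007470.2 peaked in WT on day 25. It read 1.74, 0.89 and 1.05 TPM on day 15, 12.9, 21.7 and 18.5 on day 25 and 4.33, 4.44 and 2.54 on day 35 in WT, and in the mutant 0.98, 0.26 and 0.64 TPM on day 15, 2.35, 7.34 and 3.92 on day 25 and 8.51, 0.88 and 5.46 on day 35. On day 25 all WT libraries lay above all mutant libraries (-1.83, SE 0.41, limma adjusted p = 0.000558). The WT rise and fall were called (3.06, adjusted p = 1.35e-05, and -1.97, adjusted p = 0.00154). The step difference from day 25 to 35 (1.88, adjusted p = 0.0307) was lost under 10 of 20 alternatives, 8 of them leaving out 1 library each (adjusted p up to 0.101).

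On day 15 the 6 called members were MELO3C023832.2, MELO3C009097.2 and MELO3C007048.2, higher in the mutant, and MELO3C014896.2, MELO3C005557.2 and MELO3C022014.2, lower. MELO3C005557.2, described as DNA-binding WRKY, read 26.9, 16.6 and 22.96 TPM in WT and 12.1, 9.95 and 4.0 in the mutant (-1.34, SE 0.35, limma adjusted p = 0.0224), without overlap. It was also called lower on day 35 (-0.79, adjusted p = 0.0221), a call lost without WT replicate 1 or 3 or mutant replicate 3 of that age. Libraries did not overlap in 12 of 50 members at this age, against 26.5% of all genes. None of the 6 calls held under every alternative: without mutant replicate 2 all 6 were lost, and without WT replicate 1 or 3 the count was 3. Without group-wise spread 10 members were called.

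Some WRKY genes varied little over the libraries. MELO3C024209.2, described as WRKY transcription factor 1 isoform X1, lay between 47.3 and 66.3 TPM in all 24 libraries, and its call on day 25 (-0.25, adjusted p = 0.00443) was the smallest in size of the 9 lower calls at that age. MELO3C015776.2 lay between 14.1 and 19.0 TPM in every library up to day 35 and fell in both genotypes from day 35 to 45, with changes of -0.86 (adjusted p = 1.01e-05) in WT and -0.86 (adjusted p = 2.3e-06) in the mutant. Its change on day 25 was 0.27 (adjusted p = 0.00708), which lost its call without mutant replicate 1 of that age and reversed to -0.15 under median-of-ratios scaling and -0.17 under quantile normalization. MELO3C012130.2 lay between 12.1 and 35.9 TPM and was called on day 35 only (0.44, adjusted p = 0.0361), a call lost under 7 alternatives, among them leaving out WT replicate 1 or 3 or mutant replicate 2 or 3 of that age (up to 0.396). MELO3C015910.2 was not called between genotypes at any age and ranged from 0.80 to 19.5 TPM.

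Within a genotype, members were called most often in the first WT step. From day 15 to 25, 36 of 50 members were called in WT, 10 up and 26 down (65.8% of all genes called, 19.4% up and 46.4% down), and 7 in the mutant, 6 up and 1 down (10.5%, 6.03% and 4.46%). Under median-of-ratios scaling the WT split was 13 and 22, and under quantile normalization 13 and 16, and the mutant split 6 and 2 under both. All genes split 5462 and 6406, and 5910 and 5453, in that WT step, and 991 and 1212, and 1075 and 1195, in the mutant step. From day 25 to 35, 13 were called in WT, 8 up and 5 down (44.3%, 28.2% and 16.0%). Under these scalings they split 6 and 9, and 7 and 7, and all genes 3448 and 3979, and 3924 and 3443. In the mutant 14 were called, 5 up and 9 down (23.1%, 11.7% and 11.5%). From day 35 to 45, 9 were called in WT, 3 up and 6 down (17.9%, 8.14% and 9.8%), and 22 in the mutant, 15 up and 7 down (33.2%, 14.9% and 18.2%). The largest WT fall from day 15 to 25 was that of MELO3C006037.2 (-5.05, adjusted p = 0.000435), followed by MELO3C014066.2 and MELO3C016281.2 (-2.97, adjusted p = 0.00179, lost without WT replicate 3 of day 15 at an adjusted p of 0.0583). Among genes that rose in the mutant from day 35 to 45, MELO3C017743.2, MELO3C006037.2 and MELO3C020963.2 had the largest changes. The mutant count from day 15 to 25 was 0 without mutant replicate 2 of day 15, 4 without mutant replicate 1 of day 25 and 19 without mutant replicate 1 of day 15. The WT count was 22 in that step without WT replicate 3 of day 15. Without WT replicate 1 of day 35 the WT counts in the later steps were 7 and 5, and without WT replicate 2 of that age the last was 15. The mutant count from day 25 to 35 was 7 without mutant replicate 1 of day 25 and 8 without mutant replicate 3 of day 35, and that from day 35 to 45 was 13 without the latter.

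The steps themselves differed between genotypes for 27 members from day 15 to 25, 20 higher and 7 lower (47.1% of all genes, 35.0% and 12.1%). The split was 17 and 13 under median-of-ratios scaling and 16 and 12 under quantile normalization. All genes split 4179 and 4044, and 3424 and 4024, under these scalings. From day 25 to 35, 20 members were called, 7 higher and 13 lower (38.6%, 14.6% and 24.0%). Under median-of-ratios scaling the members split 8 and 9, and all genes 3451 and 3130. From day 35 to 45, 13 members were called, 10 higher and 3 lower (28.2%, 13.4% and 14.7%). The middle count was 12 without mutant replicate 1 of day 25 or WT replicate 1 of day 35 and 13 without WT replicate 3 of day 25. The median member's step difference was 1.28 log2 units from day 15 to 25, -0.31 from day 25 to 35 and 0.52 from day 35 to 45, against 0.40, -0.17 and -0.05 for all genes. Neighbouring comparisons share libraries, so these values are set side by side and not related.

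Genes known to act with WRKY factors were counted from lists of words in the descriptions, and the percentages of all genes called are those given for the members. VQ-motif proteins bind WRKY factors in Arabidopsis, and of 17 tested 13 were called higher and 2 lower in the mutant on day 25, 7 and 3 on day 35, and 11 and 2 on day 45. Their medians were 1.10, 0.53 and 0.81 log2 units. MELO3C002611.2 of this list stood at 4.72 ± 0.77 TPM in WT against 57.0 ± 8.55 in mutant libraries on day 25 (SD, n = 3; log2 change 3.34, SE 0.22, limma adjusted p = 1.12e-10). MELO3C016947.2 was listed at 0 in the WT libraries of day 25 and at 10.6 ± 0.95 TPM in the mutant. VQ motif-containing protein 9 (MELO3C003561.2) went the other way, 113 ± 11.7 TPM in WT against 40.7 ± 1.65 in mutant libraries (log2 change -1.45, SE 0.13, limma adjusted p = 6.52e-09).

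In the MAP kinase cascade, which phosphorylates WRKY factors, 23 of 38 genes tested were called higher and 4 lower on day 25, 19 and 6 on day 35, and 24 and 4 on day 45. The kinase MELO3C020718.2 averaged 22.9 ± 6.06 TPM in WT against 619 ± 122 in mutant libraries on day 25 (log2 change 4.72, SE 0.59, limma adjusted p = 8.1e-07) and 31.4 ± 4.46 against 302 ± 168 TPM on day 45. The kinase MELO3C005705.2 was at 3.82 ± 0.76 and 54.5 ± 1.54 TPM on day 45 (log2 change 3.53). An NPK1-type kinase kinase kinase (MELO3C020535.2) averaged 108 ± 0.81 TPM in WT against 4.53 ± 1.84 in mutant libraries on day 25 (log2 change -4.36).

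Of 16 salicylic acid signalling genes 12 were called higher and 0 lower on day 25, 11 and 2 on day 35, and 10 and 1 on day 45. Salicylic acid-binding protein 2 (MELO3C007533.2), an esterase that frees salicylic acid from its methyl ester, was at 3.03 ± 0.49 TPM in WT against 79.7 ± 19.1 in mutant libraries on day 25 (log2 change 4.30, SE 0.16, limma adjusted p = 5.9e-14). Enhanced disease susceptibility 1 (MELO3C017130.2), an upstream regulator of salicylic acid signalling, was at 26.8 ± 3.18 and 99.6 ± 39.8 TPM on day 25 (log2 change 1.80). The transcription factor TGA1 (MELO3C017572.2) was at 1.71 ± 0.22 and 27.3 ± 4.99 TPM on day 45 (log2 change 3.37).

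Pathogenesis-related proteins, among them targets of WRKY factors in Arabidopsis, went both ways. Of 89 tested 58 were called higher and 14 lower on day 25, 47 and 15 on day 35, and 43 and 15 on day 45. Pathogenesis-related protein 1 (MELO3C020880.2) averaged 1.67 ± 1.07 TPM in WT against 540 ± 25.2 in mutant libraries on day 25 (log2 change 7.74, SE 0.29, limma adjusted p = 8.5e-14). Acidic endochitinase (MELO3C006965.2) stood at 4536 ± 815 and 4.13 ± 5.85 TPM at that age (log2 change -10.41). On day 45 the mutant libraries of MELO3C018536.2, a pathogenesis-related protein 1-like gene, varied as much as their mean, 4662 ± 6215 TPM against 7.43 ± 6.60 in WT (log2 change 7.66, SE 2.22, limma adjusted p = 0.00523). Of the 11 TIFY family genes tested, which include jasmonate repressors, 8 were called higher and 2 lower on day 25, 4 and 2 on day 35, and 4 and 3 on day 45. TIFY 8 (MELO3C011217.2) averaged 5.997 ± 1.19 TPM in WT against 94.8 ± 6.65 in mutant libraries on day 25 (log2 change 3.79), and TIFY 10a (MELO3C015538.2) 682 ± 232 against 28.7 ± 5.26 TPM on day 45 (log2 change -4.48). On day 15 the calls were 0 of 17 VQ-motif genes, 2 of 38 MAP kinase cascade genes, 3 of 16 salicylic acid genes, 6 of 89 pathogenesis-related genes and 0 of 11 TIFY genes.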

How the data were processed

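Melon fruit flesh RNA was sequenced in 24 libraries, 3 in each of 8 groups set by genotype and age from the labels. The authors' deposited table gives TPM per gene, a unit read from the values, since the totals per library, 927159 to 963192, are nearly equal. Cufflinks, HISAT2, StringTie and TopHat2 appear, without versions, in the submitters' processing notes. No source used here gives the build or how strand and shared reads were handled. The read depth behind a value is unknown, so no counting interval is given.

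Genes at 1 TPM or more in at least 3 libraries were tested on log2(TPM + 1) with 8 group means (limma 3.58.1, R 4.3.3), 1 variance weight per group, two-sided, Benjamini-Hochberg adjusted over all genes. The steps were tested on simulated data. A pseudocount understates the changes of low genes.

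The WRKY members, gene lists and tests were chosen with earlier results of these data known. Values are named for the 6 members of highest mean TPM and, in each comparison, for the called members of largest change (up to 5 in each direction between genotypes and 3 for steps, with a mean of 5 TPM or more in a group), and for up to 3 companion genes in each direction, with a mean of 10 TPM or more. The other members, and the 6 calls on day 15 as a set, were named after their values were seen, to account for all 50. The TIFY list was corrected for a false word match, the storage protein and oleosin list was added, and a list of ribosomal RNA was dropped, all after values were seen. No identifier matched the gene table given for the reference assembly, so no position or sequence is shown. Alternatives were another pseudocount, other filters, scalings and weights, a fit to the groups compared, a replicate block, and leaving out each library.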

Additional observations from a re-analysis of the deposited data

Results flagged for a closer look

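For 18 WRKY values the change between neighbouring ages differed between genotypes by the test of the difference itself (limma step difference, log2, mutant minus WT). From day 15 to 25 these were 6.77 for MELO3C006037.2, 5.78 for MELO3C026740.2 and 4.42 for MELO3C016281.2, which fell in WT, and -4.25 for MELO3C017743.2, -3.40 for MELO3C007576.2 and -2.27 for MELO3C014896.2, which rose in WT. All 6 differences in this interval held under the 20 alternatives run for each.

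From day 25 to 35 the differences were 2.68 for MELO3C009097.2, 2.23 for MELO3C017415.2 and 1.88 for MELO3C007470.2, and -4.11 for MELO3C006037.2, -3.20 for MELO3C024135.2 and -3.18 for MELO3C026740.2. Those of MELO3C009097.2 and MELO3C017415.2 held under all 20 alternatives. Those of MELO3C007470.2, MELO3C006037.2 and MELO3C026740.2 were lost under 10, 13 and 12 of them, and that of MELO3C024135.2 under 1.

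From day 35 to 45 the differences were 4.20 for MELO3C017743.2, 2.86 for MELO3C020963.2 and 2.24 for MELO3C014896.2, and -1.76 for MELO3C007048.2, -1.20 for MELO3C020967.2 and -0.93 for MELO3C010057.2. The call of MELO3C020967.2 was lost under 8 of 20 alternatives, that of MELO3C020963.2 under 2, and that of MELO3C010057.2 under 1, without mutant replicate 3 of day 35 (adjusted p = 0.0573). MELO3C020967.2 was lost, among others, without WT replicate 1 or mutant replicate 2 or 3 of day 35 and without WT replicate 2 or mutant replicate 2 of day 45 (adjusted p up to 0.131).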

How the results depend on the processing

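Of 87 values of 29 named members, 58 kept call and direction under every alternative, 29 lost the call under at least 1, and 0 reversed; among the other calls, MELO3C020166.2 in the first WT step reversed to 0.06 under quantile normalization. Without group weights the members called were 10 on day 15 and 18 in the mutant step from day 15 to 25. In the fit to the groups compared they were 2 in the WT step from day 35 to 45, and 6 and 14 in the middle and the last mutant step. A pseudocount of 0.1 gave 13 step differences from day 25 to 35. The cause of these shifts was not tested. Over all genes, 1434 were called on day 15, 3232 without group weights, 695 in the fit to the groups compared and 263 without mutant replicate 2.

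Leaving out each library in turn gave 0 to 9 members called on day 15, 36 to 42 on day 25, 25 to 36 on day 35 and 35 to 40 on day 45. The WT steps gave 22 to 36, 7 to 18 and 5 to 15, the mutant steps 0 to 19, 7 to 15 and 13 to 22, and the step differences 18 to 30, 12 to 20 and 9 to 15, in order of age. With the replicate block the counts between genotypes were 7, 39, 30 and 39, those of the WT steps 36, 14 and 9, of the mutant steps 6, 12 and 18, and of the step differences 28, 19 and 13. Deviations of same-numbered libraries correlated from -0.314 to 0.0619 between genotypes and from -0.283 to 0.312 between ages of a genotype. With only 3 libraries behind each group mean, these values cannot show whether the numbers pair the samples. The absence of read counts limits what can be said of genes near 1 TPM.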
